A study of Mus musculus with 2 samples.

Results

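Open chromatin far from any gene was examined in mouse kidney. A region was called remote where peaks of both libraries overlapped, where it lay outside every GENCODE M21 protein-coding gene body on chromosomes 1 to 19, and where the nearest protein-coding transcription start site (TSS) was over 50 kb away. The rule uses position alone and no signal. It gave 13624 remote regions of 94507 shared regions in all, or 14.4% (exact binomial 95% interval 14.2 to 14.6%, which like the other intervals on shares covers counting error only). They are set beside the 19387 shared intergenic regions that lay 2 to 50 kb from a TSS, called the nearer regions below.

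The data are 2 DNase-seq libraries of whole kidney from female B6CASTF1/J mice aged 8 to 10 months, a single group with biological replicates 1 and 2. DNase-seq reads the cuts that the enzyme DNase I makes where chromatin is open. A peak is a stretch with many cuts, and a footprint is a short run of bases within a peak where cuts are scarcer than around it. B6CASTF1/J is the first-generation hybrid of the C57BL/6J and CAST/EiJ strains, so 1 chromosome set of each animal differs from the C57BL/6J reference on which peaks were placed, and the effect on single regions was not tested. The libraries come from separate tissue samples under a shared donor entry, and separate animals are not stated. With 1 group of 2 libraries no test across conditions exists, and the spread between libraries may be partly technical.

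Regions far from promoters include enhancers, which raise transcription of genes at a distance through bound transcription factors, and sites of the zinc-finger protein CTCF, which holds the bases of chromatin loops and domain borders. In kidney epithelium the factors HNF1 and HNF4 are known to act at many distal sites of the proximal tubule, the segment that reabsorbs most of the filtered solutes. Genes of developmental transcription factors often stand alone in long stretches without other genes, called gene deserts.

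The tissue label was set against promoters. A shared region lay within 500 bases of a TSS for 65.1% of all protein-coding genes, for 21 of 24 proximal tubule genes, 10 of 12 thick ascending limb genes, 8 of 12 podocyte genes, 12 of 12 endothelial genes and 9 of 12 stromal genes. Of lists from cells not typical of kidney, it did so for 0 of 12 immune, 4 of 12 hepatocyte, 3 of 11 neuron and 6 of 12 striated muscle genes. The longer peak lists held 137083 peaks in replicate 1 and 125000 in replicate 2. All signal values were whole multiples of 1 step per library, 0.00827 and 0.00834, within 0.05 steps. If a step is 1 tag per M tags (M, mega), the libraries held 120.9 and 119.9 M tags, an inference from the values. The median remote peak stood at 55 steps in replicate 1 and 58 in replicate 2.

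Sequences of 9 remote regions are shown because the results below turn on them. Each is the 200 bases around the centre of the region, on the plus strand of GRCm38 (mm10), named by the gene with the nearest TSS. Capitals mark the match to the motif named, on either strand. The first 3 are the strongest remote regions with a CTCF match.

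Gm31371, CTCF, chr8:20122131-20122330: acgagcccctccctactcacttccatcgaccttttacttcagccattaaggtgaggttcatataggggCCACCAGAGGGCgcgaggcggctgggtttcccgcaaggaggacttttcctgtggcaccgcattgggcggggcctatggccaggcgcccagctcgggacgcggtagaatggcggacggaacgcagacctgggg

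Gm15319, CTCF, chr8:20424781-20424980: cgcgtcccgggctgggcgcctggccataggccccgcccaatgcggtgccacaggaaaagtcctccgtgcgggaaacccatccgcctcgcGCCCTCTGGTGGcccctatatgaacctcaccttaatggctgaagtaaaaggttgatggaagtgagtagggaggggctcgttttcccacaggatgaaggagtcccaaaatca

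Chd2, CTCF, chr7:73618331-73618530: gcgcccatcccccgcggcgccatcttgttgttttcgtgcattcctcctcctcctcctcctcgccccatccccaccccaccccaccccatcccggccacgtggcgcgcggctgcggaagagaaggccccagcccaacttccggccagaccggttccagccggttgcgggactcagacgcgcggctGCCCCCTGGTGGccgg

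The next 5 are the strongest remote regions that match HNF1, HNF4 (CAAAGTCCA), AP-1 (TGANTCA), NFI and ETS (CCGGAAGT).

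Adam6a, HNF1, chr12:113987681-113987880: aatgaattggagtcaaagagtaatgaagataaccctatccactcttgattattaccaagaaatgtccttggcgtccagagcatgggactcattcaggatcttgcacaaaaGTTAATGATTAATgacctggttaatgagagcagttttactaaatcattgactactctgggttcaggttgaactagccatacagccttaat

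Tob1, HNF4, chr11:94160531-94160730: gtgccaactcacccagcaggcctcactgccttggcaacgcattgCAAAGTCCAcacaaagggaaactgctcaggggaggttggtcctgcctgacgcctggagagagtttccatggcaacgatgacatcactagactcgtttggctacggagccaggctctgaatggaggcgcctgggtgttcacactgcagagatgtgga

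Lrrc74a, AP-1, chr12:86801291-86801490: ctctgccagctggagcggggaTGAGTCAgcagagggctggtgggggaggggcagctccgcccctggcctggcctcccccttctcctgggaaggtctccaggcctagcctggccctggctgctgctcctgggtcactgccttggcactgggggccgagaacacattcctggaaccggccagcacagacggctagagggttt

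Irf2bp2, NFI, chr8:126666471-126666670: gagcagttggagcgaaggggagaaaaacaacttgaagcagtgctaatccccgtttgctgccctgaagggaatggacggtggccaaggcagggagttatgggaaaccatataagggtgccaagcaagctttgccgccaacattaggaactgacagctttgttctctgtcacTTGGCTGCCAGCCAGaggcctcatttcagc

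Wnt7b, ETS, chr15:85634591-85634790: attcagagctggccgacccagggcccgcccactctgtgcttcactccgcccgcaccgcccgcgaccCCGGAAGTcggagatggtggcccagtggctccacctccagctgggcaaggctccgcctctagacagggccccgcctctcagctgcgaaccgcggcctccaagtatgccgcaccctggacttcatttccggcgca

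The last is the farthest from a TSS of the regions for which sequence is shown. It matched 0 of the 20 motifs searched.

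Cdh20, no match, chr1:102628141-102628340: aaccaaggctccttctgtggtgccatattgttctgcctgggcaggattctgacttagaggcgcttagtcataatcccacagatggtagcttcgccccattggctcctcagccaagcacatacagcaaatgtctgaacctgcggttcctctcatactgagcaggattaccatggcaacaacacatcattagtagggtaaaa

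Footprints covered 100% of the CTCF match in both libraries in all 3 CTCF windows. The NFI match at Irf2bp2 was also covered to 100% in both. The HNF1 match at Adam6a was covered to 100% in replicate 1 and 84.6% in replicate 2. No footprint overlapped the HNF4, AP-1 or ETS match shown (0% in each library). The Gm31371 and Gm15319 windows are near-copies of each other: the reverse complement of one matched the other at 165 of 169 aligned bases (97.6%).

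Remote regions were sparse for the space open to them. The rule leaves 902.8 Mb of sequence, 37.7% of the non-N bases of chromosomes 1 to 19, and this space held 15.1 shared regions per Mb. The space 2 to 50 kb from a TSS held 41.4 per Mb, 2.74 times as many, and promoter windows held 408. Remote density was below that of the nearer space on 19 of 19 chromosomes, and the number of remote regions per chromosome ran from 246 to 1083. How many regions count as remote depends on the annotation: with genes of every biotype in place of protein-coding genes, 3828 regions remained remote. Under the shorter peak lists the count was 8584.

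Remote regions were also weaker. Their median signal was 0.670 in replicate 1 (quartiles 0.405 and 1.20) and 0.625 in replicate 2 (0.384 and 1.13). Nearer regions had 0.992 and 1.05, and promoters 2.27 and 2.52. In each library the remote median was below the nearer one on 19 of 19 chromosomes. Median width was 240 bases for remote and 220 for nearer regions.

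Density and signal both fell with distance inside the remote set. The median distance to the nearest TSS was 121.6 kb, with quartiles of 76.0 and 222.2 kb. From 50 to 100 kb there were 29.5 regions per Mb (5493 regions), from 100 to 200 kb 20.4 (4230), and from 200 to 500 kb 11.0 (3143). From 500 to 1000 kb there were 4.23 per Mb (650 regions), and beyond 1000 kb 1.52 (108 regions). In the nearest of these classes the median signal was 0.761 (replicate 1) and 0.742 (replicate 2), and in the farthest it was 0.384 and 0.346. The gradient was the same in direction at each step in both libraries. Of remote regions, 54.4% (53.5 to 55.2%) lay upstream of the nearest TSS and 45.6% downstream. The rule leaves out gene bodies, which lie downstream of a TSS, and the share of remote sequence on each side was not computed. These shares therefore do not show a preference for either side.

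**Figure D1:**
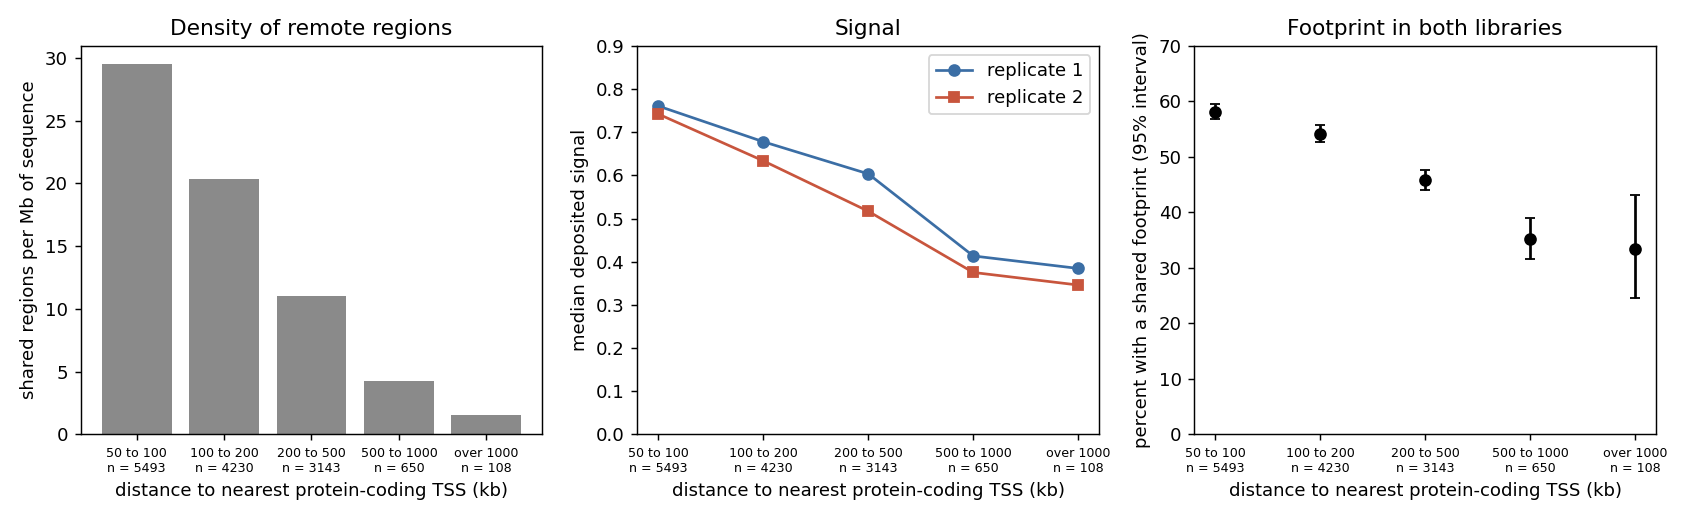
Remote regions by distance (kb) to the nearest protein-coding TSS: shared regions per Mb, median deposited signal in each library, and percent with a footprint shared by both libraries (bars, exact binomial 95% interval). All 3 fall with distance, density from 29.5 to 1.52 per Mb and the footprint share from 58.1% to 33.3%.

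At the limit of the rule, the 3 members just inside lay 50001 to 50048 bases from the TSS of Csrp1, Arntl and Emp1. Their signal was 1.96, 0.736 and 0.529 in replicate 1 and 1.94, 0.475 and 1.08 in replicate 2. The 3 regions just outside, nearest to Tent4a, Sik1 and Akr1d1, lay at 49992 to 50000 bases, with 4.34, 2.39 and 1.79 in replicate 1 and 3.17, 1.56 and 2.55 in replicate 2.

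Remote regions stood farther from other open chromatin than nearer regions did. The median distance to the next shared region was 6.54 kb for remote and 3.16 kb for nearer regions. Among remote regions, 30.6% had another within 2 kb, and these had medians of 0.893 in replicate 1 and 0.784 in replicate 2. The 1602 that stood alone for over 50 kb (11.8%) had 0.372 and 0.379, so isolated regions were the weaker ones in both libraries. Nearer regions showed the same order, with 1.20 and 1.21 within 2 kb of another and 0.389 and 0.434 alone for over 50 kb.

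A footprint shared by both libraries lay in 52.8% (51.9 to 53.6%) of remote regions, against 69.8% of nearer regions and 76.5% of promoters. At matched signal the remote and nearer shares were close. At a mean signal of 0.5 to 1 they were 57.2% and 57.6%, at 1 to 2 they were 88.1% and 88.4%, and at 2 to 4 they were 97.7% and 98.1%. Under 0.5 they were 14.1% (13.1 to 15.1%) and 16.2% (14.9 to 17.6%). Below 0.5 lay 34.9% of remote and 15.1% of nearer regions.

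**Figure D2:**
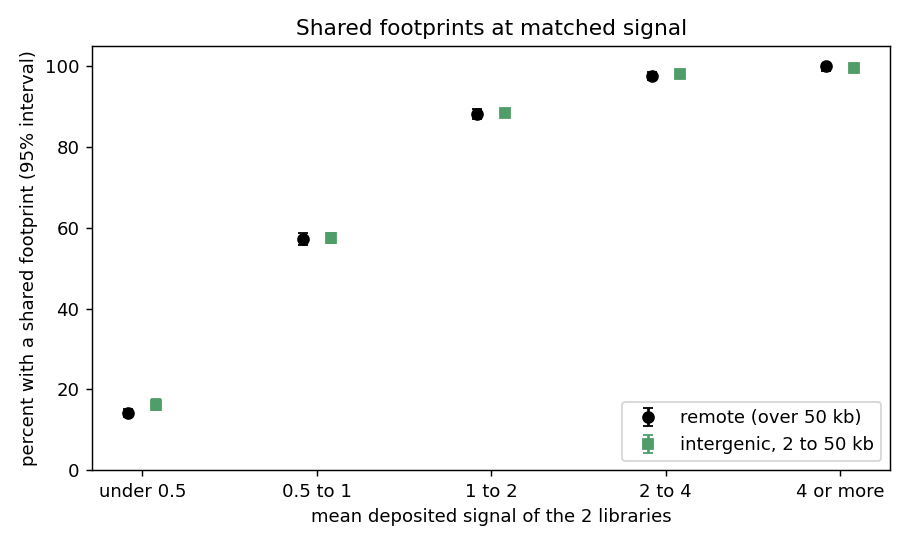
Percent of regions with a footprint shared by both libraries (bars, exact binomial 95% interval) by mean deposited signal, for remote regions and intergenic regions 2 to 50 kb from a TSS. The 2 kinds of region lie close together in every class of signal, at 57.2% and 57.6% for a signal of 0.5 to 1.

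Peaks of single libraries gave the reproducibility of remote sites. Replicate 1 had 21921 remote peaks, of which 63.3% (62.7 to 64.0%) overlapped a peak of replicate 2. Replicate 2 had 18499, of which 75.1% (74.5 to 75.7%) overlapped a peak of replicate 1. For nearer peaks the shares were higher, 74.7% and 80.2%. At matched signal the order turned for peaks of middle strength. Of remote peaks with a signal of 0.5 to 1, 82.5% were shared in replicate 1 and 90.2% in replicate 2, against 75.3% and 80.4% of nearer peaks. At 0.25 to 0.5 the remote shares were 55.1% and 68.3% and the nearer ones 50.7% and 55.6%. Under 0.25 the remote share was below the nearer one in replicate 1 (21.4% and 25.9%), and in replicate 2 the intervals overlapped (33.0% and 31.9%). Remote peaks of 2 or more were nearly all found in both libraries (98.9% and 99.7%). Beside the lower overall share stands a larger share of weak peaks: 21.7% of remote peaks in replicate 1 were under 0.25, against 5.68% of nearer peaks.

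The false discovery rate that the authors deposited differs in the same direction at a given signal. Among shared peaks of replicate 1 with a signal of 0.5 to 1, the median of the lowest value listed in the peak was 2.15e-08 for remote and 8.54e-06 for nearer peaks. Of remote peaks found in 1 library only, 11.3% (replicate 1) and 13.7% (replicate 2) touched a base listed at up to 0.05 in the other library. The shares were higher for nearer peaks found in 1 library only, 14.7% and 14.6%. For all peaks found in 1 library only they were 17.96% and 16.4%. Signal was not matched in these shares.

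The 2 libraries did not weight remote regions alike. Of remote regions, 8.10% were over 2-fold higher in replicate 2, beside 7.59% of all shared regions, and 7.80% were over 2-fold higher in replicate 1, beside 4.31% of all. The log2 ratio of the signal in replicate 2 over that in replicate 1 had a median of -0.13 for remote regions, 0.01 for nearer regions and 0.13 for promoters. It was below 0 for remote regions on 19 of 19 chromosomes. Over 2-fold in either direction were 2166 remote regions (15.9%), beside 11.9% of all shared regions.

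Remote regions with a CTCF match went against that tilt. The match was found in 717 remote regions (5.26%, 4.89 to 5.65%), and their median signal was 0.604 in replicate 1 and 1.13 in replicate 2. The other 12907 had 0.678 and 0.609. Of the 717, 661 (92.2%, 90.0 to 94.0%) were higher in replicate 2, beside 49.2% of all shared regions. Over 2-fold higher in replicate 2 were 302 (42.1%), and 2 were over 2-fold higher in replicate 1. The median log2 ratio was 0.90 (95% interval of the median over regions 0.85 to 0.95), a 1.86-fold difference.

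The difference was present at every strength and on every chromosome. With a mean signal of 0.5 to 1, 240 CTCF regions had medians of 0.488 in replicate 1 and 0.942 in replicate 2, and with 2 to 4, 89 had 1.73 and 3.48. All 13 with a mean signal of 4 or more were higher in replicate 2. By chromosome the median log2 ratio of CTCF regions ran from 0.65 to 1.11, above 0 on 19 of 19, while that of the other remote regions ran from -0.21 to -0.09. The groups of medians did not overlap.

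**Figure D3:**
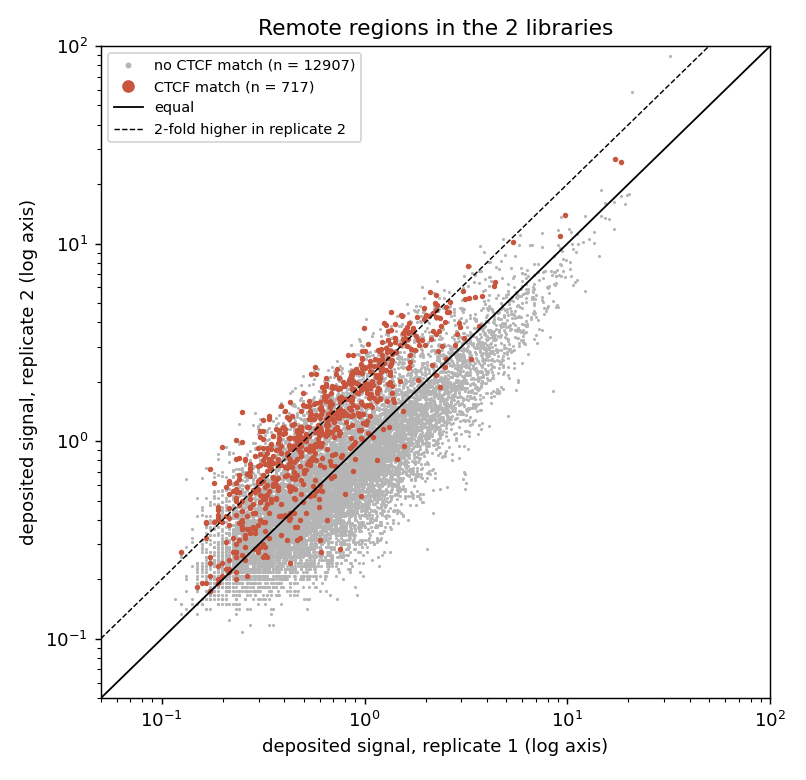
Deposited signal of the 13624 remote regions in replicate 1 (x) and replicate 2 (y), both on log axes, with the 717 regions that match the CTCF motif in red. Most red points lie above the line of equal signal, many near the dashed line of a 2-fold difference, while the grey points spread on both sides.

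Peaks of a single library showed the same lean. Of the 4609 remote peaks found in replicate 2 only, 163 (3.54%, 3.02 to 4.11%) had a CTCF match, and of the 8036 found in replicate 1 only, 47 did (0.585%, 0.430 to 0.777%). Footprints differed in the same direction. A footprint covered at least 50% of the CTCF match at 57.8% of 720 remote matches in replicate 1 and at 81.7% in replicate 2, although footprints covered 11.6% and 11.7% of all remote window bases in the 2 libraries. At nearer CTCF matches these shares were 80.0% and 93.4%. Shared peaks and shared footprints were both more frequent at higher signal. The single-library and footprint shares are therefore not separate from the signal difference, and signal was not matched. The lean of CTCF regions was not particular to remote sites: 1816 nearer CTCF regions had a median log2 ratio of 0.90, with 0.967 in replicate 1 and 1.89 in replicate 2. What produced the difference between the libraries was not tested.

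Most other motifs lay on the side of replicate 1, as did remote regions with none of the 20 (median log2 ratio -0.13): for 14 of 20 the interval of the median lay below 0. These intervals are over regions of 1 pair of libraries and do not measure spread between libraries. All remote regions together had a median of -0.13, so an interval below 0 is not by itself a difference from other remote regions. HNF1 and HNF4 had the lowest medians. The 222 remote regions with an HNF4 match had medians of 0.847 in replicate 1 and 0.625 in replicate 2, and 47 of them were higher in replicate 2 (21.2%, beside 49.2% of all shared regions). HNF1 matched 21 remote regions, with medians of 1.01 and 0.659, and 3 of them were higher in replicate 2 (14.3%). Nearer regions had like values, with median log2 ratios of -0.46 for HNF4 and -0.73 for HNF1. The Adam6a region shown above, which lies among immunoglobulin heavy chain variable genes, had 8.52 in replicate 1 and 1.80 in replicate 2. The Tob1 region, at chr11:94160501-94160760 and near the gene of an antiproliferative protein, had 8.74 and 4.79. MEF2 regions (89) had a median log2 ratio of -0.40 and CEBP regions (275) -0.32. NFI regions (195) were near equal, with medians of 0.819 and 0.842 and a log2 ratio of 0.04. YY1 regions (AAGATGGCG, 35 regions) leaned to replicate 2 with 0.51, and with 0.42 over the 32 that had no CTCF match.

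**Figure D4:**
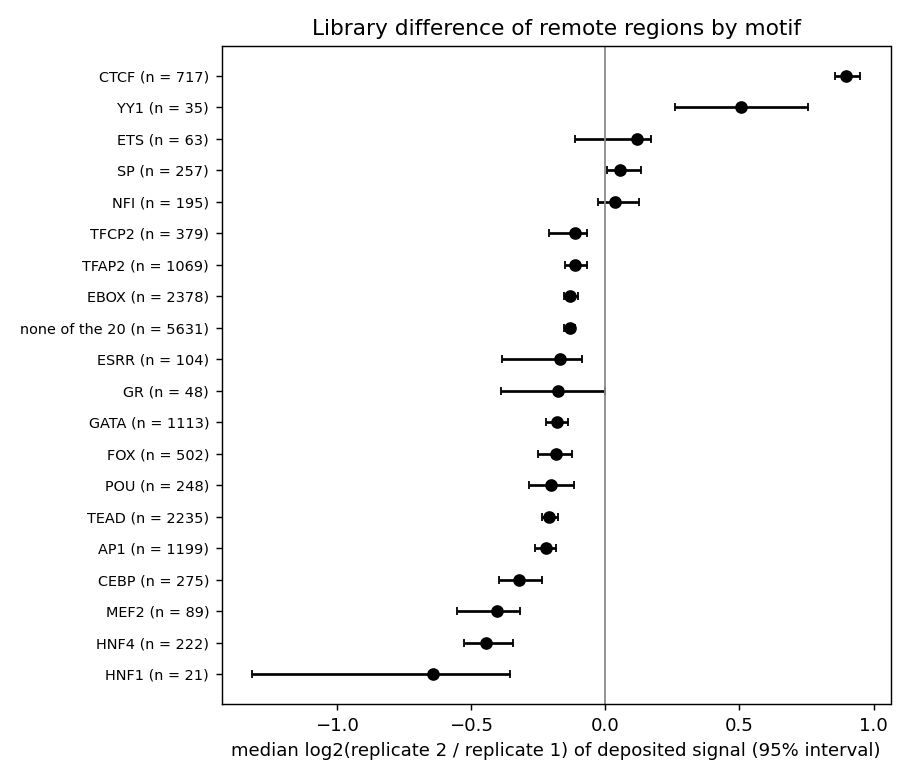
Median log2 of the replicate 2 over replicate 1 signal in remote regions with each motif (motifs in at least 20 regions, and regions with none of the 20). Bars are the 95% interval of the median over regions, from the binomial distribution. CTCF stands apart at 0.90, and HNF4 and HNF1 lie at -0.45 and -0.64.

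The 20 consensus motifs were searched on both strands of the 200 bases at the region centre, and a window could match more than 1. Words of plain bases not yet spelled out were TCAAGGTCA for the oestrogen-related receptors (ESRR) and GCCNNNGGC for TFAP2. The SP word was GGGCGGGG and the POU word ATGCAAAT. Forkhead factors (FOX) were searched as TGTTTAC. The word of the TEAD factors of Hippo signalling was CATTCC. For GATA factors it was AGATAA. The E-box word (EBOX) of many helix-loop-helix factors was CAGCTG. CTCF, HNF1, NFI, CEBP, GR, RFX, MEF2 and TFCP2 have degenerate consensus words. Each share is set beside that of 4461324 windows of 200 bases of remote sequence that touch no peak of either library. Those windows have 39.9% G and C, against a median of 49% in remote regions. Soft-masked (repeat) bases make up 38.4% of them, against a median of 1.5% in remote regions. Neither was matched. For 17 of 20 motifs the interval of the remote share lay above the share in peak-free windows, for GATA and POU it lay below, and for YY1 it spanned it.

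CTCF had the highest ratio to peak-free sequence, 5.26% against 0.0324% (163 times), followed by NFI, 1.43% against 0.0440% (32.5 times). HNF4 was found in 1.63% against 0.233% and HNF1 in 0.154% against 0.0259%. AP-1, the motif of the Jun and Fos factors, was common in both, 8.80% (1199 regions) against 6.05%. Set beside nearer regions, the remote share was lower for CTCF (9.37% nearer, lower on 19 of 19 chromosomes) and SP (1.89% and 2.97%). It was higher, with intervals that did not overlap, for 3 motifs: GATA (8.17% and 6.79%), TEAD (16.4% and 14.7%) and POU (1.82% and 1.26%). For the other 15 the intervals overlapped. A match is a word in the sequence and no measure of binding.

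**Figure D5:**
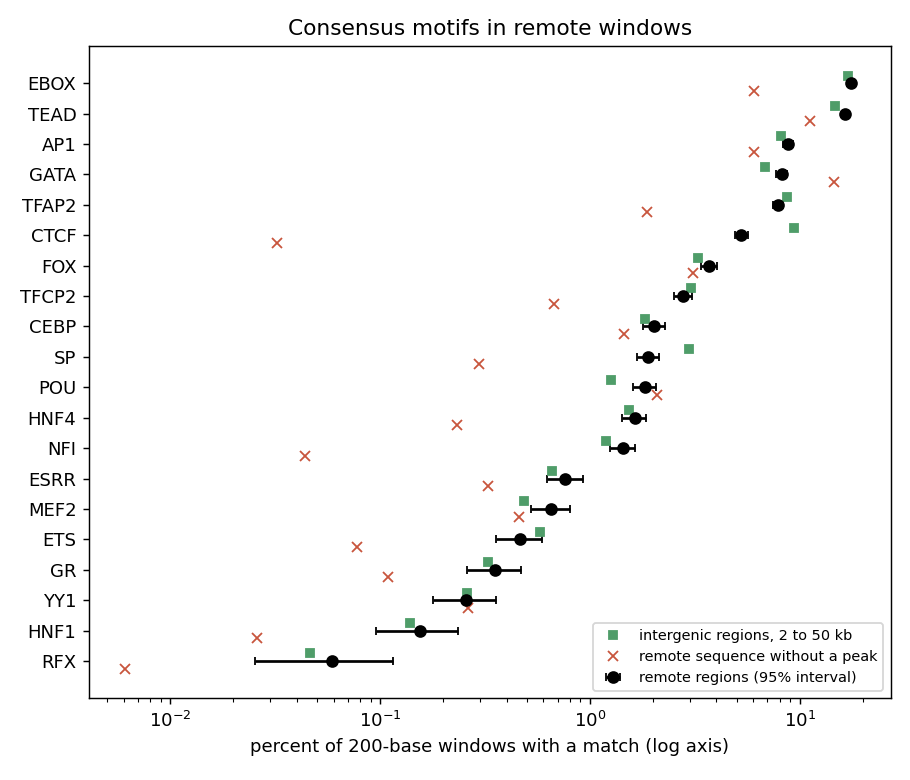
Percent of 200-base windows with each consensus motif (log axis): remote regions with their exact binomial 95% interval, intergenic regions 2 to 50 kb from a TSS, and remote sequence without a peak. CTCF shows the widest gap between remote regions (5.26%) and peak-free sequence (0.0324%).

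CTCF matches were more frequent among isolated regions, remote and nearer alike. They were found in 2.90% (2.41 to 3.46%) of remote regions with another shared region within 2 kb. Of remote regions alone for over 50 kb, 7.37% (6.13 to 8.76%) had a match. For nearer regions these shares were 6.84% and 17.4%. By mean signal the share went from 3.49% under 0.5 to 7.98% at 2 to 4, and was 3.83% at 4 or more. Soft-masked (repeat) bases filled at least 50% of the window in 3.88% of remote regions, beside 5.09% of nearer and 3.23% of all shared regions. The 528 masked regions had medians of 0.533 and 0.454 and a shared footprint in 41.5%.

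Remote from coding genes did not mean remote from all annotated genes. Noncoding here means every GENCODE type other than protein-coding, with pseudogenes and gene segments of immunoglobulins and T cell receptors included. Within 500 bases of a noncoding TSS lay 702 remote regions (5.15%), 412 of them at a long intergenic noncoding RNA (lincRNA). The share was much the same in nearer regions (5.40%) and in all shared regions (5.26%). A further share lay inside noncoding gene bodies, 2845 regions (20.9%, beside 11.8% of all shared regions) counting those at a TSS, and 10614 (77.9%) were at neither. Regions at a noncoding TSS were stronger, with medians of 0.885 and 0.888 against 0.661 and 0.617 for the rest. A mean signal of 2 or more was reached by 22.4% of them and by 10.0% of the rest. By RefSeq annotation of the same assembly, 13154 (96.6%) were remote as well, while 196 lay inside a RefSeq protein-coding gene.

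The strongest remote regions fell into a few kinds, and 7 of the 10 strongest lay within 500 bases of a noncoding TSS. Of all shared regions with a mean signal of 4 or more, 11.9% did. At the top stood chr17:39846781-39846920, with 32.2 in replicate 1 and 89.3 in replicate 2. It lies 38 bases from a start of Gm42418, a GENCODE lincRNA that RefSeq lists as a ribosomal RNA-related sequence, and its nearest coding gene is Esp38. Next was chr3:5860341-5860530 near Gm8797, with 20.8 and 58.4. These 2 were the only ones of the 10 over 2-fold apart. The near-copy pair on chromosome 8, chr8:20122141-20122320 near Gm31371 and chr8:20424821-20424940 near Gm15319, had 18.4 and 17.1 in replicate 1 and 25.8 and 26.8 in replicate 2. Both lie at pseudogene starts. How reads from sequences with several copies were placed is not given in the sources used here, so copies of such loci cannot be told apart.

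Another region of chromosome 8, chr8:19784521-19784840 at the pseudogene Gm10060 and near 4930467E23Rik, had 14.7 and 18.6. The other 5 were somewhat higher in replicate 1. The Wnt7b region, at chr15:85634501-85634880, lay 52028 bases from a start of this Wnt ligand gene, on the side towards Ppara, with 20.1 in replicate 1 and 17.8 in replicate 2. At chr8:126666481-126666660, upstream of the corepressor gene Irf2bp2, the signal was 19.7 and 17.6. The region nearest to Tspan9, a tetraspanin gene, overlapped a start of the lincRNA Gm10010 and had 18.3 and 17.5. Beyond Cd83, at a start of the lincRNA Gm33195, it was 19.3 and 15.9. The region downstream of Lpp, a gene for an adhesion protein, had 16.9 and 16.2 and lay 139 bases from a start of A230028O05Rik. Among the 100 strongest, 28 lay within 500 bases of a noncoding TSS, 6 were over 2-fold apart, and 100 held a shared footprint. Of all shared regions with a mean signal of 4 or more, these shares were 11.9%, 3.49% and 99.9%. Of remote regions with that signal they were 15.6%, 6.19% and 100%.

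The farthest regions were mostly weak. The farthest of all lay 2194.6 kb upstream of Pik3c3, a lipid kinase gene, with 0.149 and 0.208. Of the 5 farthest, 2 were nearest to Pcdh17 and 1 to Pcdh20, both protocadherin genes of cell adhesion, and their signal was 0.190 to 1.12 (replicate 1) and 0.158 to 0.450 (replicate 2). The Cdh20 region, near a cadherin gene, differed from these. It lay 2140209 bases upstream of the TSS with 4.83 in replicate 1 and 10.6 in replicate 2, and held 2 shared footprints.

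Remote regions were also counted by gap between coding genes. Of 18023 gaps, 2111 held at least 1, and 347 of these (16.4%) held 50% of all remote regions. Only a gap with sequence over 50 kb from every TSS can hold a remote region. Gap length was not accounted for, so these counts do not show concentration beyond it. The 5 fullest gaps were 894.3 to 1785.6 kb long. The gap between Cd83 and Jarid2, a partner of the Polycomb repressive complex, held 64 regions over 926.3 kb. Their medians were 1.03 in replicate 1 and 0.692 in replicate 2. Over 2-fold higher in replicate 1 were 8 of the 64, beside 7.80% of all remote and 4.31% of all shared regions. Over 2-fold higher in replicate 2 were 0, beside 8.10% and 7.59%. From Myc, the growth-promoting transcription factor gene, to Gsdmc there were 59 regions, with medians of 0.918 and 0.809. Between Mki67, a proliferation marker gene, and Mgmt, a DNA repair gene, there were 58, with 0.707 and 0.609. The gap from Kif2a, a kinesin gene, to Ndufaf2, a complex I assembly gene, held 54, with 1.03 and 0.900. By RefSeq its strongest region, chr13:107890181-107890400, lies 117 bases from a protein-coding start. Another of its regions, chr13:107831321-107831500, lies inside a RefSeq protein-coding gene. The rule used GENCODE M21, which types Zswim6 at that start as a processed transcript. From Tnp1 to Tns1, a focal adhesion gene, there were 50, with 0.910 and 0.638. All 5 gaps had a higher median in replicate 1, as did remote regions as a whole. They held 0 to 2 CTCF matches each, beside a match in 5.26% of all remote and 5.52% of all shared regions.

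Transcription factor genes of kidney held the nearest TSS of many remote regions. Of 62 on the list, 42 (67.7%) were nearest to at least 1 remote region, beside 14.2% of all protein-coding genes, and 16 to at least 10, beside 1.69%. They shared 410 regions, with medians of 0.728 in replicate 1 and 0.6003 in replicate 2. A gene can be nearest only to remote sequence that borders it, and 77.4% of the listed genes have any such sequence, beside 22.4% of all. Per Mb of remote sequence nearest to them (N bases included) the list held 19.5 regions and all genes 14.1.

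Single factors differed widely in that density. Sall1, a zinc-finger factor required for kidney formation, had 28 remote regions over 706.5 kb, or 39.6 per Mb, with medians of 0.802 in replicate 1 and 0.650 in replicate 2. Its strongest, chr8:89318041-89318300, lay 273.9 kb upstream with 6.88 and 4.41. Maf, a bZIP factor, had 26 (39.8 per Mb), with medians of 1.14 and 0.788. Of these, 4 were higher in replicate 2, beside 49.2% of all shared regions. Ets1, an endothelial and immune factor, also had 26 (31.2 per Mb), with 0.827 and 0.738. Sox9, a factor of tubule repair, had 24 (20.9 per Mb), and Irx1, a nephron patterning factor, 22 (27.8 per Mb). Emx2 had 15 in 196.4 kb (76.4 per Mb), while Zeb2 had 21 in 1798.4 kb (11.7 per Mb). Sox4 had 19, Pou3f3 and Prox1 17 each, and Meis1 12. The highest mean signal of any region of these genes was 6.19, at Maf.

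Each list of genes of differentiated nephron cells bordered at most 1.24 Mb of remote sequence. Among all protein-coding genes, 22.4% border any such sequence. The share was higher in each of these lists except the thick ascending limb (8.33%). Of 24 proximal tubule genes 8 bordered any, 0.503 Mb in all, and 5 (20.8%) were nearest to a remote region, beside 14.2% of all genes. These 17 regions, or 33.8 per Mb of that sequence beside 14.1 for all genes, had medians of 1.12 in replicate 1 and 0.850 in replicate 2. Slc22a12, a urate transporter gene, had 6, the strongest with 4.24 and 2.83. Slc13a1, a sulfate transporter gene, had 5, the strongest with 5.23 and 3.64. Of these, 0 were higher in replicate 2, beside 49.2% of all shared regions. Slc5a12 had 3 and Hao2 2. In the thick ascending limb list the only 1 of 12 genes that borders remote sequence, the prostaglandin receptor gene Ptger3, had 5 regions (57.9 per Mb). In the distal convoluted tubule list 3 of 10 genes border any and 1 had regions (Calb1, 2 regions, 6.80 per Mb over the list). Principal cell genes had 3 of 11 (27.3%, 11 regions, 8.89 per Mb) and intercalated cell genes 3 of 12 (8 regions, 58.0 per Mb). Podocyte genes had 4 of 12 (33.3%, 21 regions, 24.3 per Mb), 10 of the regions at Podxl, the gene of podocalyxin. With so few genes the intervals on the shares of genes are wide, from 0.211 to 38.5% for 1 of 12, and the densities rest on at most 1.24 Mb in each list.

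Vascular and stromal genes were nearest to more regions than each of the nephron lists, but this order did not hold per Mb. They bordered 1.09 and 1.12 Mb of remote sequence. Per Mb, thick ascending limb (57.9) and intercalated cell genes (58.0) were above both, and distal convoluted tubule (6.80) and principal cell genes (8.89) below both. Proximal tubule (33.8) and podocyte genes (24.3) lay between endothelial and stromal genes. Endothelial genes had 4 of 12 (42 regions, 38.5 per Mb), with medians of 0.599 in replicate 1 and 0.496 in replicate 2. Kdr, a receptor of vascular growth factor, had 17 in 145.5 kb (116.8 per Mb), with medians of 0.653 in replicate 1 and 0.559 in replicate 2. Cdh5, the cadherin of endothelial junctions, had 11, with 0.446 and 0.459. Stromal genes had 6 of 12 (27 regions, 24.1 per Mb), with medians of 0.661 and 0.550 and a median log2 ratio of 0.05. Of all shared regions, 49.2% were higher in replicate 2, and counts of a few regions per gene are descriptive only. Dcn, the gene of the matrix proteoglycan decorin, had 8, of which 6 were higher in replicate 2, the strongest with 3.39 and 7.12. Of the 5 regions of Col1a1, a collagen gene, 5 were higher in replicate 2, and of the 3 of Col1a2 it was 2. None (0) of the 7 regions of Itga8, an integrin gene, was higher in replicate 2, so members of the list went both ways.

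Lists of cells that kidney should lack or hold in small numbers gave a mixed result. Ptprc, the pan-leukocyte gene, had 12 remote regions, with medians of 0.674 in replicate 1 and 0.809 in replicate 2 and 3.78 and 3.68 in the strongest, although 0 of 12 immune promoters held a shared region. It is also the only 1 of the 12 immune genes that borders remote sequence. Neuron genes had 6 of 11 (17 regions), with medians of 0.364 and 0.283 and a shared footprint in 2. Their remote sequence held 6.89 regions per Mb. Of 12 striated muscle genes 1 borders remote sequence (Ryr2, 2 regions). Of 12 hepatocyte genes 2 do, and they had 0 regions. In whole tissue, fewer cells of a type and less accessibility per cell cannot be told apart, and the nearest gene need not be the one a region acts on.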

How the data were processed

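DNase-seq of 2 kidney libraries (1 group) was analysed from the processed files on mm10. Each library was processed alone, per the file headers. Aligner and callers: not given in the sources used here. The authors deposited 2 peak lists per library with a signal per peak, footprints with a constant p-value level of 0.01, and a false discovery rate (q-value) per run of bases listed up to 0.05. The deposited signal has no stated unit. No sample was dropped.

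The longer peak lists were used. Peaks overlapping by at least 1 base were joined where both libraries were present, and a region took the highest signal of each library. TSS were the starts of all transcripts of protein-coding genes of GENCODE M21, and distance was taken from the nearest edge of the region. Sequence was GRCm38.p6 from RefSeq, motifs were exact consensus matches, and promoters (500 bases on each side) and gene bodies took precedence. Coordinates are 1-based. Python 3.11.15, numpy 2.4.6, scipy 1.17.1, pandas 2.3.3, matplotlib 3.10.9 and bedtools 2.31.1 were used. Class and distance assignment was tested on 4000 simulated regions, of which 100% were recovered. Intervals on shares are exact Clopper-Pearson at 95%, and those of medians are taken over regions from the binomial distribution. No test across samples was made. Depth is known only as inferred from the signal steps.

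Named genes were the nearest of the 10 strongest and 5 farthest regions, the sides of the 5 fullest gaps, up to 4 members per list (12 for transcription factors), and the nearest of the 3 strongest regions per motif. Of the transcription factors, 1 is not reported here. The shown sequences and the genes beside the 50 kb limit come from these rules or from the limit itself. Members, lists and motifs were chosen with earlier results of these data known. Alternatives were the peak list, overlap, distance, gene set, weak peaks, window and each library alone.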

Additional observations from a re-analysis of the deposited data

How the results depend on the processing

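Of 71 alternative values, 43 stayed within their limit and 28 fell outside it. The limit was the spread between the libraries, or 1.5 times for a count. Each library alone sets that spread and is also among the alternatives, so those values are no separate check. For the log2 ratio of CTCF regions it was the interval of the median over regions. Only that log2 ratio can change sign, and it did so under 0 alternatives. The median log2 ratio of remote CTCF regions stayed between 0.88 and 0.91 over 10 alternatives chosen after seeing the data. The number of remote regions was 8584 with the shorter peak lists, 8131 beyond 100 kb, 3828 with genes of every biotype and 4275 with peaks at or above the library median, and each library alone gave 18499 to 21921 peaks. As a share of regions these were 13.3%, 8.60%, 4.05% and 8.34%, with 21.1% beyond 25 kb and 15.2 to 16.4% for a library alone. The median signal (0.648 over both libraries) was 0.934 with the shorter lists, 0.710 beyond 25 kb, 0.589 beyond 100 kb, 0.556 with every biotype, 1.55 with stronger peaks and 0.455 to 0.484 for a library alone. The shared-footprint share was 72.3%, 56.4%, 49.2%, 48.2% and 91.5% in the same order, and 63.2 to 65.8% within a library alone. The CTCF share was 6.49% with the shorter lists, 6.27% with stronger peaks and 3.49 to 4.76% for a library alone. The share of remote peaks found in both libraries (68.7%) stayed between 63.3 and 75.1%. Settings that keep stronger or fewer peaks do so by construction, and no other cause was tested. No paired analysis was possible because there is 1 group. Depth was not varied. Remote peaks under 0.25 were shared in 21.4% and 33.0% of cases, beside 25.9% and 31.9% of nearer ones.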

Other observations

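Remote regions rich in CpG, with an observed to expected CpG ratio of at least 0.6, numbered 698 (5.12%). Of these 19.3% lay within 500 bases of a noncoding TSS, against 4.39% of the others, and their median signal was 0.781 in replicate 1 and 1.00 in replicate 2. Among the 100 strongest remote regions 36 were CpG-rich. Remote regions at a noncoding TSS had an SP match in 6.84% and an ETS match in 1.99%, against 1.62% and 0.379% of the other remote regions.

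HNF4 matches were present in 1.39% (1.15 to 1.67%) of remote peaks found in replicate 1 only and in 0.716% (0.493 to 1.00%) of those found in replicate 2 only, the opposite order to CTCF. Why was not tested.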
